A study of Homo sapiens with 77 samples.

Results

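The guides described here are the 20 sgRNAs directed against DOT1L and against the genes whose symbols begin with MLLT or AFF in a pooled CRISPR-Cas9 knockout screen. They were found by gene symbol among the 2306 sgRNAs of the library, 50 of which are controls, and belong to 5 of its 564 genes, with 4 sgRNAs each: DOT1L, MLLT10, MLLT6, AFF1 and AFF4. The screen was read on day 14 and day 0 in Cas9-expressing KARPAS422, which carries mutant EZH2 and derives from a diffuse large B cell lymphoma (DLBCL), and in K562, a chronic myeloid leukemia line that the study uses for its wildtype EZH2. Both lines were otherwise untreated, and there was 1 library per line and day, so no value of the screen has a replicate error. RNA of the same 5 genes was read in KARPAS422, DB, Farage and SUDHL5 given MI503 or DMSO, and in KARPAS422 and SuDHL10 given EPZ6438 and VTP50469 together, EPZ6438, VTP50469 or DMSO, with 2 libraries per group. MI503 was given for 3 days, and the drugs of the second experiment for 48 h in KARPAS422 and 24 h in SuDHL10, where the 3 treatments of a line share its DMSO libraries. All 5 of these are DLBCL lines. The paper describes DB and SuDHL10 as carrying mutant EZH2, like KARPAS422, and Farage as EZH2 wildtype. Its text does not state the EZH2 status of SUDHL5. MI503 and VTP50469 inhibit menin, and EPZ6438 inhibits EZH2. The labels do not say whether the 2 libraries of a group came from separate cultures, so the p-values measure only the spread between libraries.

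DOT1L methylates lysine 79 of histone H3 in the bodies of transcribed genes and is recruited with partner proteins, among them AF10 (MLLT10) and AF17 (MLLT6). AFF1 (AF4) and AFF4 are scaffolds of the super elongation complex, which brings the kinase CDK9 to paused RNA polymerase II. Several of these proteins are fusion partners of MLL1 (KMT2A) in acute leukemia, where the fusion recruits DOT1L or the elongation machinery to its target genes.

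On hg38, DOT1L lies on chromosome 19 at 2163933 to 2232578, MLLT10 on chromosome 10 at 21524646 to 21743630, MLLT6 on chromosome 17 at 38705273 to 38729795 and AFF1 on chromosome 4 at 86935002 to 87141039, all on the plus strand. AFF4 lies on the minus strand of chromosome 5 at 132875395 to 132963634. The sgRNAs are named in the files by number alone, so the exon or domain that each of them cuts is not given here.

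Abundance is given as the log2 ratio of day 14 over day 0, scaled to equal library totals with a pseudocount of 1 and set relative to the median control sgRNA, so that a value of −1 marks an sgRNA that became 2-fold rarer than the controls. The KARPAS422 libraries held 19025742 counts on day 14 and 20640972 on day 0. Those of K562 held 18275683 and 25031212. In each line 48 of the 50 controls had at least 30 counts on day 0 and were used. Their SD was 0.638 in KARPAS422, where 3 of them lay below −1, and 1.30 in K562, where 2 did. Intervals are exact (Clopper-Pearson, 95%) and cover counting error only, which is small beside the spread of the controls.

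Of the 5 genes, DOT1L lost its sgRNAs most in KARPAS422. Its sgRNA s_473 had 1578 counts on day 14 and 8326 on day 0, a log2 change of −3.05 (interval −3.13 to −2.97). The sgRNA s_475 had 3337 counts on day 14 and 13165 on day 0, a change of −2.63. The sgRNA s_476 had 5089 and 13239 counts on the same days, a change of −2.03. The weakest, s_474, had 4295 counts on day 14 and 5966 on day 0, a change of −1.12 (interval −1.18 to −1.07). All 4 sgRNAs of DOT1L thus moved the same way and lay below −1, as did 36.9% of all scored targeting sgRNAs of the library. They differed in depth, and their span of 1.92 was wider than that of 78.5% of the 564 genes. The changes of s_473 and s_475 were below those of all 48 controls, the lowest of which was at −2.58, while 1 control lay below s_476 and 3 below s_474. The gene score, the median over the sgRNAs, was −2.33, at which 19.9% of the starting abundance remained relative to the controls. This was the 88th lowest of 564 scores, so 15.4% of the genes scored lower. With each sgRNA left out in turn the score stayed between −2.63 and −2.03.

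The sgRNAs of the DOT1L partners MLLT10 and MLLT6 were all below 0 too, but only s_1081 of MLLT10 was below −1. For MLLT10, a PHD finger protein that binds DOT1L, 3 sgRNAs lay between −1 and 0. Of these, s_1083 had 4529 counts on day 14 and 5352 on day 0 (−0.89), with 3 of 48 controls below it. Counts of s_1082 were 11963 and 10721 (−0.49), and those of s_1084 were 7526 and 4984 (−0.056). The sgRNA s_1081 had 0 counts on day 14, but it began with 69, against a library median of 7278 on day 0. Set at 3 counts, the upper limit that a count of 0 allows, its log2 value relative to the controls would be −5.17, and its exact interval, which also covers the counting error of day 0, ended at −4.84. The fitted value of −6.84 depends on the pseudocount. The score of MLLT10 was −0.69, and the mean over its sgRNAs, −2.07, rests on s_1081. With a minimum of 100 counts on day 0, which leaves that sgRNA out, the score was −0.49.

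MLLT6, the paralog of MLLT10, had 4 sgRNAs that lay close together. They were s_1085 at −0.98, s_1087 at −0.67, s_1088 at −0.58 and s_1086 at −0.46. The first had 4974 counts on day 14 and 6240 on day 0, and the shallowest, s_1088, had 423 and 402. None of them was below −1, and their span of 0.520 was wider than that of 18.8% of the 564 genes, whose median span was 0.985. The score of MLLT6 was −0.63.

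The 2 scaffolds of the super elongation complex differed in how well their sgRNAs agreed. AFF1 had the sgRNA s_32 with 3972 counts on day 14 and 19652 on day 0, a change of −2.96 (interval −3.01 to −2.91) that no control reached. Its s_31 had 7688 and 12290 counts (−1.33). Its other two had 15004 counts on day 14 and 13691 on day 0 (s_29, −0.52) and 28189 and 18818 (s_30, −0.068). All 4 sgRNAs of AFF1 were deeply counted, and 2 were below −1 while s_30 lay within the spread of the controls, with 20 of 48 below it. The span of 2.89 was wider than in 89.2% of genes. The score of −0.92 was 199th of 564, and with each sgRNA left out in turn it ranged from −1.33 to −0.52, on both sides of −1.

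AFF4 had sgRNAs at −0.92 (s_36), −0.88 (s_33), −0.49 (s_35) and −0.38 (s_34), with 1104 to 18295 counts on day 14 and 1327 to 21408 on day 0. They spanned 0.538 and none was below −1. The scores of MLLT10, AFF4 (−0.69) and MLLT6 differed by less than the SD over the sgRNAs of any of the 3, the smallest of which was 0.222 for MLLT6.

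In KARPAS422, 7 of the 20 sgRNAs were below −1, or 35%, against 36.9% of the 2237 targeting sgRNAs of the library that were scored. Of the 5 genes, 1 scored below −1, against 32.6% of 564 genes. The median score was −0.69 for the 5 genes and −0.69 for all genes, so the centring places most of this chromatin library below the controls. MLLT10, AFF4 and MLLT6 stood near the middle of it, with 50%, 50.7% and 55.0% of the genes lower.

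The position relative to 0 depends on this reference. When the values were centred on 184 sgRNAs against 46 screened genes whose RNA was below 0.1 CPM (counts scaled to library size) in both KARPAS422 DMSO libraries, a reference chosen after seeing the data, DOT1L was at −1.86, AFF1 at −0.46, MLLT10 at −0.23, AFF4 at −0.22 and MLLT6 at −0.16. The sgRNAs against these unexpressed genes had themselves a median of −0.47 relative to the controls, and 19 of them, or 10.3%, lay below −1. Another centring moves all sgRNAs of a line alike and leaves the order of the genes as it is. With the mean over the sgRNAs in place of the median, DOT1L was at −2.21, MLLT10 at −2.07 and AFF1 at −1.22.

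In K562 the sgRNAs of DOT1L did not agree. The sgRNA s_476 had 6260 counts on day 14 and 16771 on day 0 (−1.15), and s_473 had 4089 and 9600 (−0.96). In contrast, s_475 had 16410 counts on day 14 and 18333 on day 0 (0.11), and s_474 had 6779 and 6320 (0.37). Of the 48 controls, 2 lay below s_476 and 3 below s_473. The score was −0.43, or 168th of 564, and with each sgRNA left out in turn it lay between −0.96 and 0.11. The sgRNA s_474 was the highest of the 4 in both lines.

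The scores of the other genes in K562 were near or above 0. AFF1 was at −0.070 (4 sgRNAs from −0.36 to 0.18), MLLT6 at −0.024 (−0.62 to 0.35) and MLLT10 at 0.0043 (3 sgRNAs from −0.54 to 0.16). The fourth sgRNA of MLLT10, s_1081, had 0 counts on day 14 and 20 on day 0 in K562 and fell under the minimum of 30 counts. AFF4 was at 0.32, and all 4 of its sgRNAs were above 0, from 0.13 to 0.45, so that 95.6% of genes scored lower. Of the 19 sgRNAs scored in K562, 1 was below −1, against 11.9% of all targeting sgRNAs, and 0 of the 5 genes were, against 4.08% of all genes. The median score of all genes was −0.23.

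Between the lines, 17 of the 19 sgRNAs that could be compared were lower in KARPAS422 than in K562, and 87.6% of all genes had a lower score there. The difference KARPAS422 minus K562 was −1.90 for DOT1L, with all 4 sgRNAs lower, from −2.74 for s_475 to −0.88 for s_476. AFF4 followed at −1.004, AFF1 at −0.85, MLLT10 at −0.70 and MLLT6 at −0.60, against a median of −0.58 over all genes. Over 47 controls the same difference had an SD of 1.19 and ran from −4.98 to 5.53, and each sgRNA of DOT1L lay within that range. Its ends reflect extreme controls, such as the lowest in K562 at −7.15. Most controls were closer together, with 5th and 95th percentiles of −1.31 and 0.324 in KARPAS422 and −0.889 and 0.863 in K562. A difference below −1 was found for 27.3% of genes, and that of DOT1L was the 84th lowest of 564. The 2 sgRNAs that were not lower were s_30 of AFF1 (difference 0.29) and s_1088 of MLLT6 (0.037). The 2 sgRNAs of AFF1 that were lost in KARPAS422 were not lost in K562, where s_32 was at −0.23 and s_31 at 0.094. With 1 library per line and day none of these differences could be tested, and a line and its libraries cannot be told apart.

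Other genes of the same pathways were screened too, and their lists were counted in the same way, beside the 32.6% of all genes that scored below −1 in KARPAS422. Of the 14 genes listed for the super elongation complex 3 were in the library, and CDK9, its kinase, had the lowest score in KARPAS422 at −4.18. Both screened members of the PAF1 complex, a polymerase-associated factor, scored below −1: WDR61 at −1.70 and PAF1 at −1.46. Of the regulators of H2B ubiquitylation, a mark that stimulates DOT1L, 3 of 5 did, from −3.15 for RNF40, a subunit of the H2B ubiquitin ligase, to 0.11 for UBE2A, a conjugating enzyme. On the list of elongation factors and polymerase kinases, 3 genes were screened. These were SUPT16H (−4.88) and SSRP1 (−2.80), both subunits of the histone chaperone FACT, and SETD2 (−2.64), the H3K36 methyltransferase. In the group of MLL1 and menin, 2 of 3 scored below −1, with menin (MEN1) at −3.34, KMT2A at −1.74 and their partner PSIP1 at −0.53. All 5 subunits that MLL complexes share did, from −4.12 for WDR5 to −2.74 for RBBP5. In K562, where 4.08% of all genes did, no gene of these lists scored below −1, and CDK9 was at −0.97, MEN1 at −0.94, PSIP1 at −0.84 and KMT2A at −0.25.

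RNA-seq showed which of the targets the lymphoma cells transcribed and what the inhibitors did to them. Libraries held 13034958 to 54883332 counts in the MI503 experiment and 8956156 to 31573027 in the other. Genes were called at an adjusted p under 0.1. The B cell markers MS4A1, CD79A, CD79B and PAX5 were above 1 CPM in every library. The summed CPM of 10 markers of other cells was 43.7 to 62.0 in KARPAS422, and 0.755 to 7.35 in the other lines except for 1 Farage library with MI503, which had 64.0. In KARPAS422 most of it was CD3D, a T cell gene. In that Farage library it was mainly the erythroid gene HBB (24.5 CPM) and the epithelial genes KRT14 (19.4) and KRT5 (16.2). The other Farage library with MI503 had 0.021, 0.063 and 3.46 CPM of these genes. The second erythroid gene, HBG1, was at 0 in every library. K562 had no RNA-seq here, so its cell type and its levels of these genes were not checked.

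Without inhibitor, DOT1L had 127 and 132 CPM in KARPAS422, against 95.1 and 87.8 in DB, 213 and 231 in Farage, and 191 and 167 in SUDHL5. AFF1 had 3.12 and 3.69 CPM in KARPAS422 and 2.09 and 2.82 in Farage, against 11.4 and 10.9 in DB and 17.9 and 14.8 in SUDHL5. KARPAS422 was thus among the lines with the least AFF1 RNA. Whether that level bears on the disagreement of the AFF1 sgRNAs was not tested. Across the 8 DMSO libraries MLLT10 had 59.2 to 103 CPM, AFF4 91.5 to 203 and MLLT6 223 to 414. The overlapping genes in the annotation include AP3D1 and PLEKHJ1 at DOT1L and SKIDA1 at MLLT10, on the other strand, and the use of strand in the counting is not stated in the available sources.

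MI503 changed AFF1 most in DB, where it rose, and it also rose in Farage and fell in SUDHL5. In DB it had 56.6 and 52.5 CPM with MI503, against 11.4 and 10.9 CPM with DMSO, a log2 change of 2.29 (standard error 0.0755, 4.88-fold, edgeR adjusted p = 1.8e-10). In Farage it had 4.81 and 4.28 CPM with MI503 and 2.09 and 2.82 with DMSO, a rise of 0.83 (standard error 0.247, adjusted p = 0.0420). In SUDHL5 it fell, with 10.05 and 12.4 CPM with MI503 against 17.9 and 14.8 with DMSO (−0.51, standard error 0.102, adjusted p = 0.00263). In KARPAS422 it had 3.17 and 3.36 CPM with MI503 and 3.12 and 3.69 with DMSO, and the libraries overlapped (−0.052, adjusted p = 0.823). The Farage call was lost without DMSO replicate 1 (0.65, adjusted p = 0.239), without DMSO replicate 2 (1.08, adjusted p = 0.113) and with libraries thinned to equal depth (0.60, adjusted p = 0.191). Without MI503 replicate 1, the library with 64.0 CPM of the markers of other cells, AFF1 was at 0.66 (adjusted p = 0.0740). In DB the depth goes with the treatment, at 52236459 and 46170498 counts with MI503 against 14695930 and 15474692 with DMSO, and thinned to equal depth the change was 2.33.

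DOT1L itself fell in DB, to 68.0 and 68.5 CPM with MI503 against 95.1 and 87.8 CPM with DMSO (−0.43, standard error 0.0436, adjusted p = 3.0e-06). In Farage it had 183 and 208 CPM with MI503 and 213 and 231 with DMSO (−0.23, adjusted p = 0.00646), a call lost without DMSO replicate 2 (−0.17, adjusted p = 0.172) and kept without MI503 replicate 1 (−0.23, adjusted p = 0.00166). In SUDHL5 it was higher, with 198 and 218 CPM against 191 and 167 (0.24, standard error 0.0437, adjusted p = 0.00176). KARPAS422 had 122 and 120 CPM with MI503 and 127 and 132 with DMSO, which did not overlap but missed the threshold (−0.076, standard error 0.0357, adjusted p = 0.110). It passed there without DMSO replicate 1 (−0.10, adjusted p = 0.0465).

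With MI503 the largest change of MLLT10 or AFF4 was 1.31-fold, for AFF4 in DB. MLLT10 rose in DB (0.21, adjusted p = 0.000215) and SUDHL5 (0.22, adjusted p = 0.00208) and was not called in KARPAS422 (−0.083, adjusted p = 0.102, or 0.0757 without DMSO replicate 2) or Farage (−0.047, adjusted p = 0.586). AFF4 rose in DB, with 122 and 122 CPM against 91.5 and 93.7 (0.39, adjusted p = 8.6e-07), and in SUDHL5 (0.22, adjusted p = 0.00152), and fell in Farage, with 86.5 and 102 CPM against 111 and 108 (−0.26, adjusted p = 0.00417, or 0.00330 at −0.23 without MI503 replicate 1). In KARPAS422 AFF4 was called at −0.081 (adjusted p = 0.0967). That call was lost without MI503 replicate 1 (−0.051, adjusted p = 0.491), MI503 replicate 2 (−0.099, adjusted p = 0.162) or DMSO replicate 1 (−0.058, adjusted p = 0.327), and with DESeq2 (adjusted p = 0.192). MLLT6 was called in none of the 4 lines, with log2 changes from −0.023 to 0.025. Of the 5 genes, 1 was called in KARPAS422 (51.8% of all genes tested), 4 in DB (69.2%), 3 in Farage (27%) and 4 in SUDHL5 (55.0%), so a call alone sets none of them apart.

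The effect of MI503 was also compared between lines, as KARPAS422 minus the other line in a fit of all 16 libraries. The effect on AFF1 was lower in KARPAS422 than in DB (log2 difference −2.34, standard error 0.183, adjusted p = 2.2e-08). It was also lower than in Farage (−0.88, standard error 0.246, adjusted p = 0.0216), a call lost without Farage DMSO replicate 1 (−0.71, adjusted p = 0.179). Against DB, 4 of the 5 genes differed at adjusted p under 0.1, against 38.3% of all genes. Against Farage 1 did, against 19.5%, and against SUDHL5 4 did, against 30.6%.

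With EPZ6438 and VTP50469 together, KARPAS422 showed the largest change of AFF1 among the 10 comparisons. It had 35.8 and 29.0 CPM with both drugs, 9.95 and 9.82 with EPZ6438, 4.67 and 5.20 with VTP50469, and 2.11 and 4.41 with DMSO. The libraries with both drugs were thus above all others. Over all genes these 2 libraries also differed from each other more than those of any other group, with a chi-square per gene of 47.5. In the same line it was 15.2 with DMSO, 2.94 with VTP50469 and 1.82 with EPZ6438. The log2 change was 3.24 with both drugs (standard error 0.326, 9.45-fold, adjusted p = 0.000758) and 1.52 with EPZ6438 (standard error 0.322, adjusted p = 0.0335). It was 0.56 with VTP50469, which was not called (adjusted p = 0.562). Without 1 library at a time the value with both drugs lay between 2.81 and 3.83. The EPZ6438 call was lost without EPZ6438 replicate 1 (1.43, adjusted p = 0.126) or replicate 2 (1.55, adjusted p = 0.426).

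DOT1L fell in the same KARPAS422 cells. It had 71.7 and 76.0 CPM with both drugs, 91.0 and 87.0 with EPZ6438, 137 and 126 with VTP50469, and 116 and 157 with DMSO. The 4 libraries with EPZ6438, alone or combined, were below both DMSO libraries, and those with VTP50469 alone lay between them. The log2 change was −0.93 with both drugs (standard error 0.156, adjusted p = 0.00454), −0.66 with EPZ6438 (standard error 0.156, adjusted p = 0.0450) and −0.060 with VTP50469 (adjusted p = 0.970). The EPZ6438 call was lost without EPZ6438 replicate 1 (−0.79, adjusted p = 0.103), EPZ6438 replicate 2 (−0.62, adjusted p = 0.731) or DMSO replicate 2 (−0.51, adjusted p = 0.113).

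In SuDHL10, AFF1 was called higher with both drugs and with EPZ6438, and DOT1L was not called. AFF1 had 4.28 and 4.52 CPM with both drugs, 4.98 and 5.58 with EPZ6438, 4.84 and 4.42 with VTP50469, and 2.23 and 2.67 with DMSO. It rose by 0.87 with both drugs (standard error 0.183, adjusted p = 0.0145) and by 1.11 with EPZ6438 (standard error 0.179, adjusted p = 0.00559). The value with both drugs missed the threshold without their replicate 2 (0.82, adjusted p = 0.120). With VTP50469 it was 0.94 (adjusted p = 0.341), which passed with the replicate number as a block (0.96, adjusted p = 0.0259). DOT1L had 171 and 143 CPM with both drugs, 187 and 140 with EPZ6438 and 133 and 130 with VTP50469, against 163 and 136 with DMSO, and its changes were 0.10, 0.14 and −0.17. The value with EPZ6438 passed without EPZ6438 replicate 2 (0.37, adjusted p = 0.0803).

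MLLT10 and AFF4 were not called with any of these drugs in either line. With both drugs in KARPAS422, MLLT10 was at −0.13 (adjusted p = 0.517), or −0.50 without replicate 1 of that group (adjusted p = 0.0205), and AFF4 at 0.31 (adjusted p = 0.305), or 0.60 without its replicate 2 (adjusted p = 0.0121). The 2 libraries with both drugs differed in AFF4, at 163 and 101 CPM against 115 and 94.1 with DMSO. In SuDHL10 the block brought a pair of calls, AFF4 with both drugs (−0.33, adjusted p = 0.00818, against 0.117 without the block) and MLLT10 with EPZ6438 (−0.17, adjusted p = 0.0975, against 0.346).

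Of the 4 genes that could be tested in this experiment, the number called in KARPAS422 was 2 with both drugs, 2 with EPZ6438 and 0 with VTP50469, against 48.7%, 18.3% and 3.38% of all genes. In SuDHL10 it was 1 with both drugs, 1 with EPZ6438 and 0 with VTP50469, against 21.6%, 17.5% and 0.00% of all genes. VTP50469 alone in SuDHL10 gave 0 calls with edgeR, 724 genes at an unadjusted p under 0.05, 14 calls with DESeq2 and 463 with the replicate block. The block raised the calls over all genes in SuDHL10 to 5306 with both drugs and 4490 with EPZ6438, against 2469 and 1999 without it.

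The effects of both drugs together on AFF1 and DOT1L differed between KARPAS422 at 48 h and SuDHL10 at 24 h, so that line and treatment time cannot be told apart. With both drugs the difference KARPAS422 minus SuDHL10 was 2.29 for AFF1 (standard error 0.405, adjusted p = 0.00169) and −1.09 for DOT1L (standard error 0.243, adjusted p = 0.00632), and 30.5% of all genes differed. With EPZ6438 no gene of the 4 passed, against 3.93% of all genes, and DOT1L was at −0.80 (adjusted p = 0.134, or 0.0184 with the block at −0.78). That value also passed without EPZ6438 replicate 2 of SuDHL10 (−0.94, adjusted p = 0.0664) or DMSO replicate 1 of KARPAS422 (−0.94, adjusted p = 0.0744). With VTP50469 none passed, against 0.517% of all genes.

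MLLT6 was not tested in the combination experiment. That table lists it at 0.240 CPM or less in all 16 libraries, with at most 7 counts, whereas it had 310 and 316 CPM in KARPAS422 with DMSO in the MI503 experiment. The tables differ in this way for other genes too: of 2415 genes with at least 100 CPM in KARPAS422 with DMSO in the MI503 table, 169 were below 1 CPM in KARPAS422 with DMSO in the combination table. Each experiment was therefore tested within its own table.

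A further 5 genes with MLLT or AFF symbols were not in the screen: MLLT1, MLLT3, MLLT11, AFF2 and AFF3. With MI503, 3 of the 5 were called in KARPAS422 (51.8% of all genes tested) and 5 in DB (69.2%). In Farage 1 of 4 tested was called (27% of all genes), and in SUDHL5 3 of 5 were (55.0%). In the combination experiment 4 could be tested. With both drugs 3 of them were called in KARPAS422 (48.7% of all genes) and 1 in SuDHL10 (21.6%). With EPZ6438 the counts were 2 in KARPAS422 (18.3%) and 1 in SuDHL10 (17.5%). With VTP50469 they were 0 in both lines (3.38% and 0.00%). MLLT3 (AF9), which binds both DOT1L and the AFF scaffolds, rose in KARPAS422 with both drugs, to 19.3 and 21.0 CPM against 6.96 and 5.84 with DMSO (1.62, adjusted p = 0.000597), and with EPZ6438 (1.39, adjusted p = 0.00640). It also rose in SuDHL10 with both drugs (0.95, adjusted p = 0.0116) and with EPZ6438 (0.82, adjusted p = 0.0265). AFF3, a paralog of AFF1, had 367 and 399 CPM with both drugs in KARPAS422, against 164 and 152 with DMSO (1.24, adjusted p = 0.000348). With MI503 AFF3 rose in DB (0.83, adjusted p = 9.5e-08), where AFF1 rose, and fell in SUDHL5 (−0.37, adjusted p = 0.00262), where AFF1 fell. In Farage, where AFF1 was also called higher, AFF3 was at 0.59 CPM or less and was not tested. In SuDHL10 AFF3 was at 0.61 CPM or less and was not called with any treatment, although AFF1 was called higher with EPZ6438 and with both drugs. MLLT1 (ENL), the paralog of MLLT3, fell with MI503 in all 4 lines, by 0.10 to 0.29 on the log2 scale. AFF2 was higher with MI503 in KARPAS422 (0.090, adjusted p = 0.0420), lower in DB (−0.12, adjusted p = 0.00182) and SUDHL5 (−0.11, adjusted p = 0.0652), and not called in the combination experiment. MLLT11 fell in DB alone of the 4 lines (−0.61, adjusted p = 1.9e-06), and the combination table lists it at 0 counts.

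Of 55 further genes on the pathway lists, the number tested with MI503 was 53 in KARPAS422, of which 5 rose and 31 fell. In DB 10 rose and 36 fell of 53, in Farage 2 rose and 17 fell of 52, and in SUDHL5 7 rose and 24 fell of 53. The share called was 67.9% of the listed genes against 51.8% of all genes in KARPAS422, 86.8% against 69.2% in DB, 36.5% against 27% in Farage and 58.5% against 55.0% in SUDHL5. Over all genes the calls were more even in direction, with 3689 up and 3817 down in KARPAS422 and 4805 up and 4840 down in DB. The median log2 change over the listed genes was −0.12 in KARPAS422 (0.0068 over all genes), −0.18 in DB (0.023), −0.090 in Farage (0.0071) and −0.075 in SUDHL5 (−0.0037). In KARPAS422 the smallest p-values belonged to the elongation factor SUPT6H (−0.72, adjusted p = 5.8e-08) and the FACT subunit SUPT16H (−0.30, adjusted p = 7.1e-06). In DB they belonged to ELL3, an elongation factor of the ELL family (−1.43, adjusted p = 9.9e-11), and SUPT16H (−0.82). All 8 regulators of H2B ubiquitylation fell in KARPAS422 with MI503, with a median of −0.17.

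With both drugs in KARPAS422, 4 of 50 listed genes rose and 20 fell, at a median of −0.32 against 0.10 over all genes. These calls were 48% of the listed genes, close to the 48.7% of all genes, of which 3108 rose and 3333 fell. Of the PAF1 complex 5 of 6 fell, led by WDR61 (−0.80, adjusted p = 0.00692) and PAF1 (−0.53, adjusted p = 0.00830), and both FACT subunits fell, SSRP1 by 1.02 and SUPT16H by 1.12. In SuDHL10, 4 rose and 4 fell of 51, or 15.7% against 21.6% of all genes. With EPZ6438 alone, 4 rose and 6 fell in KARPAS422 (20.0% against 18.3%) and 2 rose and 5 fell in SuDHL10 (13.7% against 17.5%). With VTP50469 alone, 1 rose in KARPAS422, HEXIM1, an inhibitor of P-TEFb (0.54, adjusted p = 0.0805), and 0 fell, which is 2.00% of the listed genes against 3.38% of all genes.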

How the data were processed

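The members and the pathway lists were chosen with earlier results of these data known. For the screen, the authors deposited raw sgRNA counts from MAGeCK, made after trimming with cutadapt. The RNA-seq tables they deposited hold raw gene counts, which per the labels come from HISAT2 (2.1.0) on hg38 and featureCounts (1.6.1). RNA was tested with edgeR (4.0.16) quasi-likelihood fits, filterByExpr, TMM scaling and Benjamini-Hochberg adjustment over all genes of a contrast, and called at adjusted p under 0.1. MI503 was fitted for each line alone, and the 8 libraries of a line shared a fit for the combination. Standard errors follow from the F statistic, and CPM are scaled by TMM. In the combination experiment same-numbered libraries deviated together (correlations of 0.394 to 0.811 in KARPAS422 and 0.157 to 0.691 in SuDHL10), so blocked values are given where they change a call. Named were every member and its sgRNAs, and the lowest and highest score of a list with KMT2A, MEN1, PSIP1 and SSRP1. The other genes with MLLT or AFF symbols and list genes with the smallest p were named too. Screen and RNA code was tested on simulated data. Gene positions come from GENCODE v44.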

Additional observations from a re-analysis of the deposited data

Results flagged for a closer look

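The effects that differed between lines, by the interaction term of edgeR at adjusted p under 0.1, are given here as KARPAS422 minus the other line on the log2 scale. For MI503 against DB they were −2.34 for AFF1, −0.47 for AFF4 (adjusted p = 8.9e-05), −0.29 for MLLT10 (adjusted p = 0.00556) and 0.36 for DOT1L (adjusted p = 0.00262). These held without any 1 library, and the depth that goes with the treatment in DB was not part of the interaction model.

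For MI503 against Farage AFF1 differed by −0.88, and the call was lost without Farage DMSO replicate 1 (−0.71, adjusted p = 0.179). Against SUDHL5 the differences were −0.30 for DOT1L (adjusted p = 0.0114), −0.29 for MLLT10 (adjusted p = 0.00686), −0.28 for AFF4 (adjusted p = 0.00817) and 0.47 for AFF1 (adjusted p = 0.0746). The AFF1 call was lost in 5 of the 8 runs that left out 1 library, with values from 0.31 to 0.54 in them. DOT1L and AFF4 lost theirs without SUDHL5 DMSO replicate 2 (−0.22 and −0.25), and MLLT10 without KARPAS422 MI503 replicate 2 (−0.26).

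For EPZ6438 and VTP50469 together, KARPAS422 minus SuDHL10 was 2.29 for AFF1 and −1.09 for DOT1L. KARPAS422 was treated for 48 h and SuDHL10 for 24 h, so line and treatment time cannot be told apart. Without 1 library at a time they lay between 2.03 and 3.09 for AFF1 and between −1.15 and −0.72 for DOT1L, with every adjusted p under 0.1. DOT1L moved by over 1.5 times without KARPAS422 DMSO replicate 2, to −0.72.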

How the results depend on the processing

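In the screen, 3 genes scored below −1 in KARPAS422 with the mean over the sgRNAs in place of the median (DOT1L −2.21, MLLT10 −2.07 and AFF1 −1.22). The number of sgRNAs below −1 in K562 was 0 with centring on all sgRNAs or with library totals alone, and 2 with a minimum of 10 counts on day 0. Centred on all sgRNAs, KARPAS422 scores were −1.65 for DOT1L and −0.24 for AFF1, and with library totals alone −1.56 and −0.15. The other 3 genes were then within 0.15 of 0. Counts of calls of DOT1L, MLLT10, AFF1 and AFF4 stayed within 1.5 times the main count under every alternative: 12 with MI503, from 10 to 13 without 1 library, and 6 in the combination experiment, from 4 to 7. With the replicate number as a block they were 14 and 9. For MI503 the numbers did not pair the libraries (the deviations correlated at 0.135 for KARPAS422, 0.0937 for DB, −0.0840 for Farage and −0.303 for SUDHL5), and the block also called DOT1L (−0.073) and MLLT10 (−0.085) in KARPAS422. In SUDHL5 the block gave 6904 called genes and the crossed pairing, chosen after seeing the data, 7803, against 7362 without a block. Library totals alone moved the median change of all genes by 0.23 with both drugs and 0.10 with EPZ6438 in KARPAS422, where AFF4 with both drugs then passed (0.52, adjusted p = 0.0419), and MLLT6 passed with MI503 in DB (0.089, adjusted p = 0.0122). With RLE size factors DOT1L (−0.080) and MLLT10 (−0.087) passed with MI503 in KARPAS422. With no filter on low counts AFF1 with VTP50469 and AFF4 with both drugs passed in SuDHL10 (0.94 and −0.35), and with the 2 compared groups alone AFF4 did (−0.31). The difference between lines for AFF4 with both drugs, 0.57, passed under 5 alternatives, at 0.55 to 0.77. No called change in RNA was reversed under any alternative. In the screen depth limits the sgRNA s_1081, and in RNA-seq the low counts of AFF1.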
